A study of Mus musculus with 12 samples.

Results

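Satellite cells taken at postnatal day 21 (P21) were compared with the fetal stage before and the adult stage after, to look for genes that peak or dip during postnatal growth. The comparison used 9 of the 12 arrays of the study: 3 adolescent (P21) arrays against the average of the fetal stage mean (3 arrays) and the adult stage mean (3 arrays). The other 3 arrays, from aged mice, entered only the shared estimate of spread and are quoted as a further reference. A probe set was kept if it carried exactly 1 gene symbol, and a gene with several was read from the probe set with the highest mean over all arrays, which gave 19938 genes.

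At every stage the mice were heterozygous for a Pax7-ZsGreen reporter (strain C57BL/6), and RNA was taken from sorted ZsGreen+ cells. Fetal cells came at E17.5 from whole forelimb and hindlimb muscle. Adolescent cells (P21), adult cells (2 to 3 months) and aged cells (over 1 year) came from hindlimb muscle alone, so the fetal flank also differs in limb source. Mice were pooled, 4 fetal, 6 adolescent, 8 adult and 8 aged. The labels leave unsaid whether replicates came from different pools of mice. The p-values therefore reflect the spread among these arrays alone, and that spread may be technical. Sorting gates were set by age, with wild type SV129 mice as the negative control, and a gate admits any cell that fluoresces enough. Values are log2 intensities after robust multi-array averaging (RMA), and the small number of arrays limits the precision.

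Satellite cells are the stem cells of skeletal muscle and carry the transcription factor Pax7. Before and shortly after birth many of them divide and supply nuclei to growing fibres, and in the adult most rest beneath the basal lamina until injury. Around weaning the fibres are still enlarging, adult fast myosins replace the embryonic and neonatal forms, nerve contacts mature and the capillary bed fills in. A gene that is high at P21 alone would be missed by a comparison of fetal with adult cells.

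Pax7 averaged 10.96 on the adolescent arrays, between the fetal (10.46) and the adult arrays (11.60). The mean of 27 satellite cell identity genes was 10.07 to 10.09 on the adolescent arrays, 9.37 to 9.40 on the fetal and 10.07 to 10.25 on the adult. Array medians lay between 6.13 and 6.29. Olfactory and vomeronasal receptor genes averaged 3.79 to 3.91 on 9 arrays, 4.31 on aged replicate 1, and 4.47 and 4.50 on adult replicates 2 and 3. The proliferation marker Mki67 stood at 10.5 to 10.6 on the adolescent arrays, 10.95 on average on the fetal, and 9.28, 6.58 and 6.44 on adult replicates 1, 2 and 3. Replicates 2 and 3 lay closest to each other in every stage (median absolute difference 0.0603 at P21, against 0.129 between replicates 1 and 2), though 0 pairs of arrays were identical.

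P21 stood out more often by a rise than by a fall. Of 19938 genes, 328 (1.65%) were peaks, that is, higher at P21 than at both flanks with each difference past an adjusted p of 0.05 (limma, Benjamini-Hochberg over all genes). Troughs, lower than both flanks by the same rule, numbered 46 (0.231%). At least 2-fold in both differences were 31 peaks and 2 troughs. The 3 adolescent arrays lay above all 6 flanking arrays for 1043 genes (5.23%) and below them for 355 (1.78%). This was so for 319 of the 328 peaks and all 46 troughs. The smaller of the 2 flank differences had a median of 0.53 on the log2 scale over the peaks and -0.47 over the troughs, and 224 peaks and 31 troughs differed more from the fetal than from the adult cells. Both flank differences use the same adolescent arrays.

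These counts depended on single libraries. Peaks numbered 881 without adult replicate 1, 157 without adult replicate 2, 168 without adult replicate 3, 180 without adolescent replicate 2 and 160 without adolescent replicate 3. Troughs numbered 160 without adult replicate 1, and 19 to 27 without adult replicate 2 or 3, fetal replicate 2 or 3, or any adolescent replicate. Of the 328 peaks 326 kept their call without adult replicate 1, and 15 kept it when replicates 2 and 3 of each stage were averaged into 1 sample. With both adult replicates 2 and 3 left out together, 52 of 328 peaks and 9 of 46 troughs kept their call.

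Many of the single genes named below also rested on particular arrays. The peaks Sorbs2, Atp2a1, Xirp2, Cd36, Cpt1a, Thy1, Timp3, Lamc3, Rgs5, Pdgfrb, Mal, Cldn5, Sox17, Cdh5, Ptprb, Pecam1, Hoxd8, Srxn1 and Trim25 lost their call without adult replicate 2 and likewise without adult replicate 3, and Vdr without adult replicate 2. So did the troughs Piezo2, Cacng7, Vegfd, Sinhcaf, Ints6l, Tcf7l2, Slc16a1, Mir341, Mir337, Mir505 and Mir218-1 without either of these arrays, and Sntb1 without adult replicate 3. Mymk, Kdr, Lamc1, Ddx21, Mpped2, St3gal1, Adhfe1, Igfbp5 and Mir540 kept their call without any single adult array and lost it without at least 1 adolescent or fetal array. Ccnd1, Dll1, Chrna1, Gpr50, Cd93, Car4, Mybpc2, Pygm, Nt5e and Gjc3 lost their call in 2 settings each. These were adult replicates 2 and 3 left out together, and replicates 2 and 3 averaged. The same held for Fabp4, Timp4, Mbp, Mmrn2, Sult1a1, Kif21b, Ndrg1, Csf2ra and Mir329.

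The midpoint difference alone does not identify a peak. It passed for 1304 genes in the upward direction (6.54%) and 490 in the downward direction (2.46%). Of the 1304, 328 were peaks, 609 passed above the fetal cells only, 302 above the adult cells only, and 65 lay above one flank and below the other. The 490 comprised 46 troughs, 328 genes that passed below the fetal cells only, 61 below the adult cells only and 55 of mixed direction. Esr1, an oestrogen receptor, was 2.39 ± 0.09 (SE) above the midpoint, yet stood 0.20 above the adult cells (adjusted p = 0.191). Mstn (myostatin), a brake on muscle growth, was 1.92 below the midpoint while 0.76 above the adult cells. Neither was a peak or a trough.

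**Figure D1:**
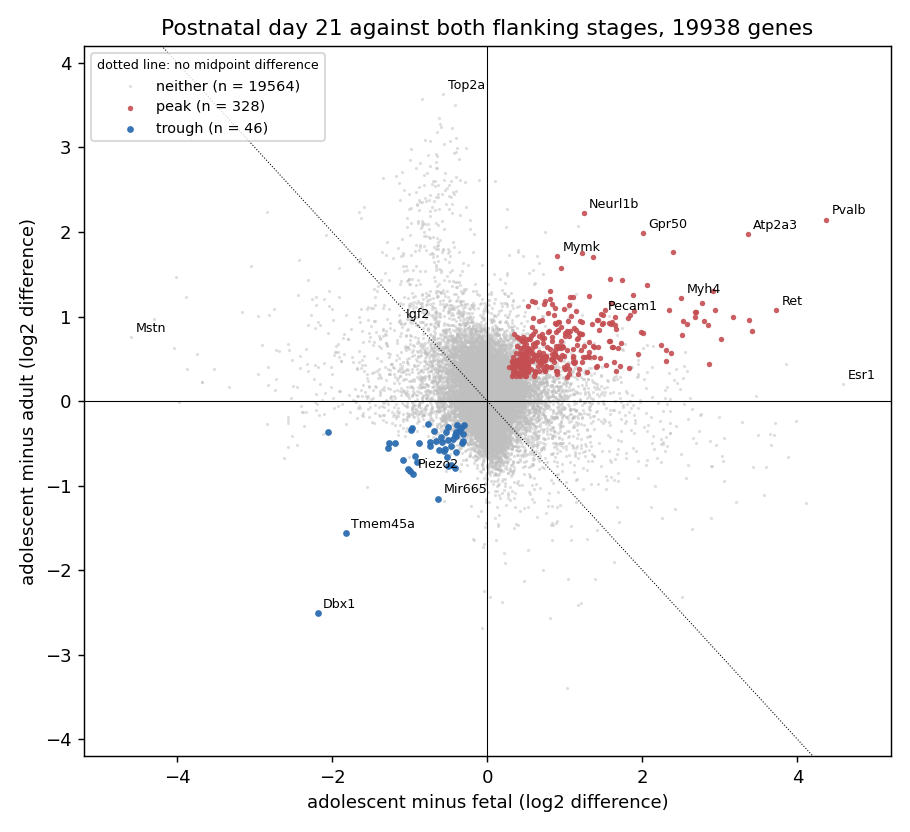
Each point is 1 of 19938 genes, placed by its log2 difference between adolescent and fetal cells (horizontal) and between adolescent and adult cells (vertical). The 328 peaks in red fill the upper right and the 46 troughs in blue the lower left, with Dbx1 and Tmem45a farthest out among the troughs, while Top2a, Esr1 and Mstn lie near an axis or in a mixed quadrant.

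Taken one flank at a time, 2008 genes (10.1%) were higher and 1731 (8.68%) lower in adolescent than fetal cells. Against adult cells 3032 (15.2%) were higher and 909 (4.56%) lower. When all arrays were instead set to a common median, 4084 passed upward and 517 downward against adult cells, so that the share of higher calls moved from 76.9% to 88.8%. The imbalance nearly vanished without adult replicate 1, with 5696 higher and 5061 lower (53%), and with array weights, with 7363 higher and 7725 lower (48.8%). Among 714 genes that rose at least 2-fold from fetal to adult cells, a median of 76.2% of the log2 change was complete at P21 (middle 50 in 100 genes, 52.9% to 94.5%), and 144 lay beyond their adult level. Among 1353 genes that fell at least 2-fold, a median of 44.9% was complete (29% to 66.1%), and 69 lay beyond their adult level. The rises were thus further along at P21 than the falls by this measure, which was not tested. Without adult replicates 2 and 3 the adult flank itself changes, as the counts above show.

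The peaks were ranked by the smaller of the 2 flank differences, among those whose arrays did not overlap and whose P21 mean was at least 6, leaving out small RNAs, predicted genes and chemosensory receptors. The first 15 were Pvalb, Gpr50, Atp2a3, Flvcr2, Cd93, Sorbs2, Mybpc2, Nt5e, Tac4, Gjc3, Oaf, Neurl1b, Rbp7, Myh4 and Car4. Of these, Atp2a3, Flvcr2, Tac4, Oaf, Neurl1b and Rbp7 kept their call under all 20 alternative settings that were run.

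Atp2a3, a calcium pump of the endoplasmic reticulum (SERCA3), read 8.89, 9.22 and 9.31 on the adolescent arrays, 5.75, 5.75 and 5.84 on the fetal, 7.48, 7.02 and 6.99 on the adult and 6.63, 7.19 and 7.13 on the aged arrays. No flanking or aged array reached an adolescent value. The log2 difference was 3.36 ± 0.17 from the dim fetal cells (adjusted p = 3.15e-08) and 1.98 ± 0.17 from adult cells (3.93-fold, adjusted p = 4.44e-05). SE here and below is that of limma's fit, with the spread shared over all 4 stages. Flvcr2, a membrane transporter, read 8.23, 8.48 and 8.54 at P21, 5.81, 6.11 and 6.14 in fetal, 6.99, 6.42 and 6.56 in adult and 6.18, 6.23 and 6.02 in aged cells. It was again high at P21 alone, by 2.40 ± 0.15 over fetal and 1.76 ± 0.15 over adult cells (adjusted p = 4.08e-05 for the latter).

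Gpr50, an orphan receptor related to the melatonin receptors, read 7.96, 8.87 and 8.94 at P21, 6.83, 6.49 and 6.42 in fetal cells, 7.50, 6.14 and 6.18 in adult cells and 5.77, 5.17 and 5.35 in aged cells. Adult replicate 1 stood well above the other adult arrays, yet under every adolescent array. The differences were 2.01 ± 0.34 from fetal cells and 1.98 ± 0.34 from adult cells, and the call was lost when replicates 2 and 3 were averaged or adult replicates 2 and 3 left out together. Tac4, which encodes a tachykinin peptide precursor, rose from 5.38, 5.52 and 5.47 in fetal cells to 8.06, 8.42 and 8.62 at P21 and stood at 6.67, 7.19 and 7.34 in adult and 6.17, 6.32 and 6.49 in aged cells. Its adolescent values cleared every other array, with differences of 2.91 ± 0.18 and 1.30 ± 0.18. Oaf, a gene for a secreted protein, read 8.31, 8.66 and 8.67 at P21 and between 7.14 and 7.56 on all 9 other arrays.

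Nt5e (CD73), an enzyme of the cell surface that makes adenosine from AMP, read 8.05, 8.58 and 8.60 at P21 against 6.83 to 7.45 in fetal and 6.37 to 7.31 in adult cells. It was 1.37 ± 0.26 above fetal and 1.70 ± 0.26 above adult cells. Rbp7, a retinol-binding protein of the cytoplasm, read 9.12, 8.96 and 9.03 at P21, 7.70 to 7.92 in fetal and 6.99 to 7.83 in adult cells, with differences of 1.22 ± 0.19 and 1.76 ± 0.19. Sorbs2, a scaffold protein of the cytoskeleton, and Gjc3, a gap junction protein of myelinating glia, were highest on adolescent replicate 1 (8.88 against 7.84 and 7.90, and 7.79 against 6.83 and 6.91). Their smaller differences were 1.43 ± 0.35 and 1.26 ± 0.24.

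**Figure D2:**
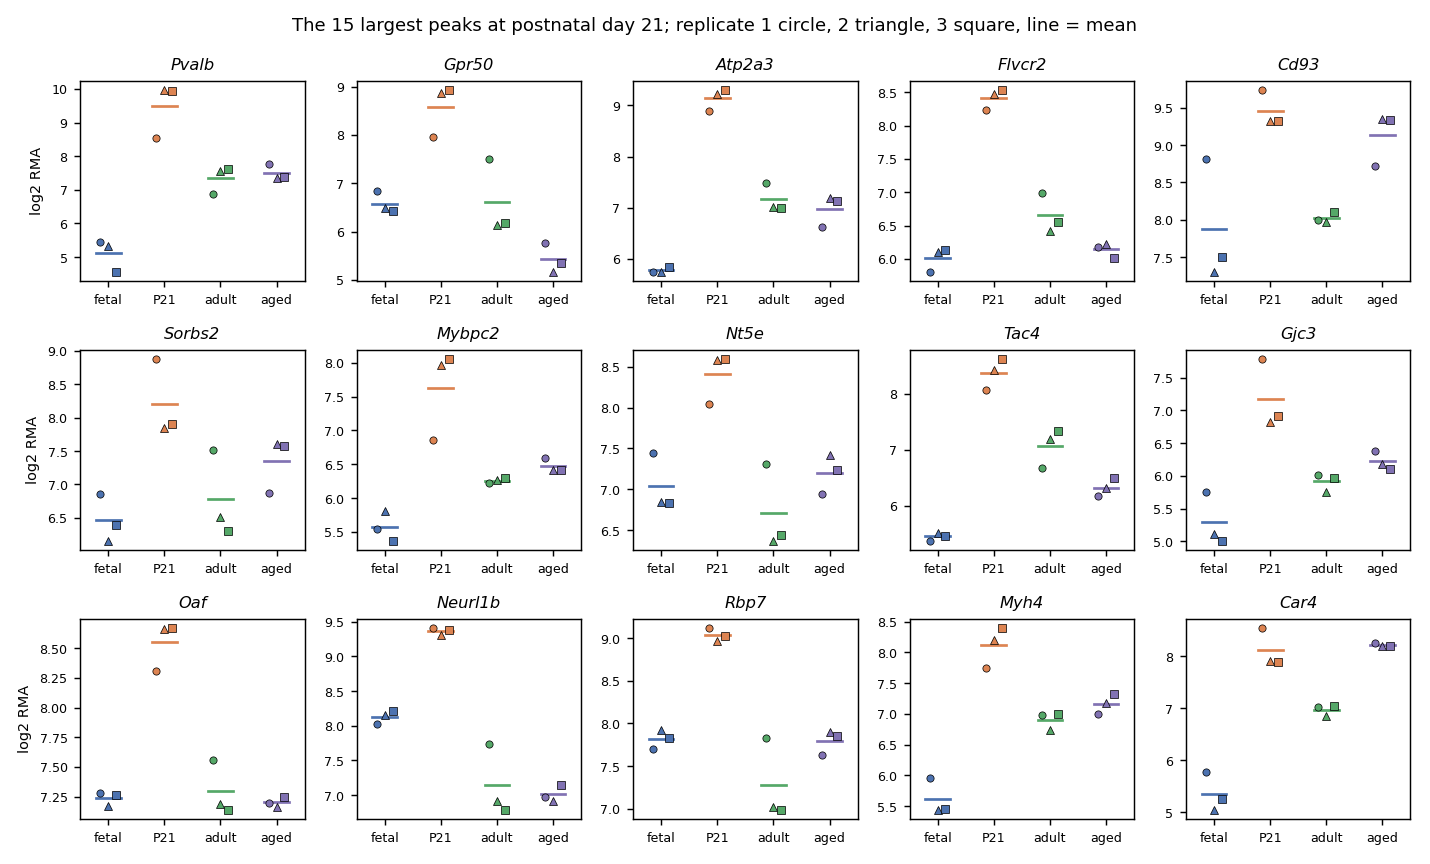
Log2 RMA values on each of the 12 arrays for the 15 largest peaks, ordered by the smaller of the 2 flank differences; symbols mark the replicate number and lines the stage means. In every panel the 3 adolescent (P21) values lie above the 6 fetal and adult values, as the rule required, while Cd93 and Car4 return in aged cells to the adolescent level.

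Some genes of nerve contact were among the peaks. Of 31 measured genes of the neuromuscular junction and innervation list, 4 were peaks (12.9%, against 1.65% of all genes): Ret, Gfra1, Chrna1 and Nrp1. This list, like the others of the report, was chosen with earlier results of these data known, so the share is a description. The list as a whole had a median midpoint difference of -0.06, against -0.01 over all genes. Past the midpoint threshold were 7 members upward and 5 downward (of all genes, 6.54% and 2.46%). Sema3a, an axon-repelling ligand, was among those lower, at 6.83 on average at P21 against 9.21 in fetal and 6.95 in adult cells.

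Ret is the receptor tyrosine kinase that answers to GDNF-family ligands. It read 9.81, 10.17 and 10.24 at P21, 6.53, 6.30 and 6.23 in fetal cells, 9.15, 8.89 and 8.95 in adult cells and 8.15, 8.29 and 8.31 in aged cells. All adolescent values lay above all others, by 3.72 ± 0.13 over fetal (13.2-fold, adjusted p = 1.33e-09) and 1.08 ± 0.13 over adult cells (2.11-fold, adjusted p = 0.000267). Gfra1, the GPI-anchored co-receptor that binds GDNF and engages Ret, read 10.07, 10.30 and 10.35 at P21, 9.17, 9.29 and 9.31 in fetal, 9.45, 8.99 and 9.04 in adult and 8.69, 8.85 and 8.81 in aged cells. The pair differed in course, since Gfra1 was 0.98 ± 0.13 above fetal and 1.08 ± 0.13 above adult cells, so that its flanks were close to level. Both calls were kept under all 20 alternative settings.

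Chrna1, the alpha subunit of the muscle acetylcholine receptor, read 10.26, 10.41 and 10.55 at P21, 9.20, 9.19 and 9.18 in fetal, 9.87, 9.22 and 9.34 in adult and 9.19, 8.59 and 8.72 in aged cells. Adult replicate 1 came nearest to the adolescent arrays and lay below them all. The differences were 1.22 ± 0.18 (adjusted p = 0.000285) and 0.93 ± 0.18 (adjusted p = 0.00356), and the call was lost with replicates 2 and 3 averaged or adult replicates 2 and 3 left out together. Nrp1, a co-receptor for semaphorins and VEGF that neurons and endothelium share, was 1.06 ± 0.21 above fetal and 1.13 ± 0.21 above adult cells, and 0.11 ± 0.21 above aged cells. Endothelial markers, described below, were high on the same adolescent and aged arrays, and their part in the Nrp1 difference was not tested.

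Several muscle fibre genes, fast-fibre genes among them, were also peaks. Of 34 mature myofibre genes 7 were peaks (20.6%): Pvalb, Myh4, Myh1, Mybpc2, Atp2a1, Pygm and Xirp2, and 0 were troughs. Of the 34, 12 were higher and 4 lower than in fetal cells (10.1% and 8.68% of all genes). Against adult cells 15 were higher and 0 lower (15.2% and 4.56% of all genes). The median midpoint difference of the list was 0.61, with 0.48 over fetal and 0.76 over adult cells. The mean of the list was 7.80 to 8.03 on the adolescent arrays, 7.04 to 7.48 on the adult, 7.20 to 7.26 on the aged, and 7.86, 7.13 and 7.03 on fetal replicates 1, 2 and 3. Fetal replicate 1 thus lay within the adolescent range, and 14 of the 34 were peaks without it. Without adult replicate 1, 11 were peaks, with adult replicates 2 and 3 left out 3, and with replicates 2 and 3 averaged 0. These genes define differentiated fibres rather than satellite cells. In such bulk samples, fewer cells of a type and less RNA per cell cannot be told apart, and the part of fibre material in the sorted cells was not tested.

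Pvalb (parvalbumin), a calcium buffer of fast fibres, came first among the ranked peaks. It read 8.55, 9.98 and 9.94 at P21, 5.45, 5.33 and 4.57 in fetal cells, 6.87, 7.55 and 7.61 in adult cells and 7.76, 7.36 and 7.37 in aged cells. Adolescent replicate 1 was well below its fellows and still above every other array. The fetal values are dim, so that the fold against them is not given. The difference was 4.37 ± 0.35 from fetal (adjusted p = 1.82e-06) and 2.15 ± 0.35 from adult cells (4.42-fold, adjusted p = 0.00151). Myh4, the fastest fibre myosin (type IIb), read 7.75, 8.21 and 8.40 at P21, 5.96, 5.44 and 5.45 in fetal, 6.98, 6.74 and 7.0 in adult and 7.0, 7.17 and 7.33 in aged cells. Its differences were 2.50 ± 0.18 and 1.21 ± 0.18, and those of Myh1 (type IIx myosin) 2.01 ± 0.12 and 0.80 ± 0.12, with 6.99 to 7.03 on the adolescent arrays. Pvalb, Myh4 and Myh1 lost their call only where replicates 2 and 3 were averaged.

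Mybpc2, the fast isoform of myosin-binding protein C, read 6.86, 7.96 and 8.06 at P21 against 5.37 to 5.81 in fetal and 6.22 to 6.29 in adult cells. Atp2a1, the calcium pump of fast sarcoplasmic reticulum (SERCA1), read 9.67, 10.46 and 10.46 against 8.15 to 8.84 and 9.05 to 9.51. Replicate 1 was the lowest adolescent array for each of these genes but Myh1. Pygm, which releases glucose units from muscle glycogen, was 0.73 ± 0.16 above fetal and 0.74 ± 0.16 above adult cells. Actn3, the fast-fibre actinin, reached 10.27 on average at P21 and 9.91 in adult cells, and its difference from adult cells did not pass (adjusted p = 0.0806).

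The stretches of promoter below are shown because Chrna1, Myh4, Atp2a1 and Pvalb rose together at P21 and because E boxes, the sites bound by MyoD-family factors, are a known feature of muscle promoters. Each runs 300 bases, from 250 before the annotated start to 50 after it, read 5′ to 3′ on the gene's strand (RefSeq, GRCm38.p6). Capitals mark the E boxes CAGCTG, which reads the same on both strands, and CAGGTG or CACCTG, the 2 strands of another; no match overlaps a further one.
Chrna1, chr2:73580289-73580588, minus strand: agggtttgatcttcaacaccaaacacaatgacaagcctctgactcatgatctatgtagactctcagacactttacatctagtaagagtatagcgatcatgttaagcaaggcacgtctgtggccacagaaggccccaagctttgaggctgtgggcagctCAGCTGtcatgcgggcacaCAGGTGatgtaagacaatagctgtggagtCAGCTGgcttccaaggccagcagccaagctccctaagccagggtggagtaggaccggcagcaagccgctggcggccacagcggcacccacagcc
Myh4, chr11:67237562-67237861, plus strand: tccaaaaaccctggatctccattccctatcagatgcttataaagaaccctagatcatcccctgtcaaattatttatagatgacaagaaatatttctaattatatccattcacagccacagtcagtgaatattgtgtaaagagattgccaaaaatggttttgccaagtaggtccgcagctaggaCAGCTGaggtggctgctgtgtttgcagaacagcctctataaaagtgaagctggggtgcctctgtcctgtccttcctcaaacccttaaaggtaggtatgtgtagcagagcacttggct
Atp2a1, chr7:126463024-126463323, minus strand: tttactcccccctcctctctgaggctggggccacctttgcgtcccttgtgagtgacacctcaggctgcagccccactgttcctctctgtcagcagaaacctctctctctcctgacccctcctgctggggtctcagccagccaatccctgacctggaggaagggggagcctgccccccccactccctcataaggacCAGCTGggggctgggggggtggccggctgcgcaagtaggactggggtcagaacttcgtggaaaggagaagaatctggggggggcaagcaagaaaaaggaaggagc
Pvalb, chr15:78206351-78206650, minus strand: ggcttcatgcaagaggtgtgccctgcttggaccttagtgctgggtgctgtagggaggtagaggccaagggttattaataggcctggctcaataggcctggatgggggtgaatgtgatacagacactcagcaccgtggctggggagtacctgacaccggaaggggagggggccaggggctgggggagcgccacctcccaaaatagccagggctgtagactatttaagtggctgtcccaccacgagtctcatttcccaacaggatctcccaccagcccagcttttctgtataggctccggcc

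The Chrna1 window holds 3 matches, 92, 73 and 44 bases upstream of the start. Myh4 has 1 match 67 bases upstream and Atp2a1 has 1 at 55 bases upstream. In the Pvalb window shown these letters do not occur. Of all 32851 promoter windows of this length, 10823 (32.9%) hold at least 1 match and 7.4% hold at least 2. Gfra1 also has 1 match, 90 bases upstream (chr19:58455349-58455648, minus strand). Of the other windows looked at, that of Mybpc2 holds 2 matches, and those of Dll1 hold 0 and 2. A second Pvalb window and the Dbx1 window hold 0. The genes were chosen with their values known, so these matches are a description of the sequences only.

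Fusion and commitment genes were split. Of 34 measured, 2 were peaks (5.88%). In this list 14 were lower and 5 higher than in fetal cells, and 14 were higher and 3 lower than in adult cells. Of all genes, 8.68% were lower and 10.1% higher than in fetal cells, and 15.2% were higher and 4.56% lower than in adult cells. Mymk (myomaker), the membrane protein that drives fusion of myoblasts, read 9.56, 10.15 and 10.20 at P21, 9.15, 9.01 and 9.07 in fetal, 9.01, 7.80 and 7.97 in adult and 7.68, 6.96 and 6.97 in aged cells. Adolescent arrays lay above all others, by 0.90 ± 0.29 over fetal (adjusted p = 0.0476) and 1.71 ± 0.29 over adult cells (adjusted p = 0.00177). This call was lost under 11 of 20 alternative settings, among them the replicate number as a block. Myog (myogenin), the differentiation factor, averaged 10.10 at P21, 9.36 in fetal and 8.10 in adult cells and passed the midpoint contrast (1.37, adjusted p = 0.0436) but not the comparison with fetal cells (adjusted p = 0.344). Embryonic myosin Myh3 (5.01 at P21, 8.68 in fetal, 4.78 in adult cells) and slow troponin Tnni1 (6.28, 8.20 and 6.33) had already reached their adult range.

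Notch signalling, which holds satellite cells undifferentiated, gave 2 peaks among 28 measured genes (7.14%), both of them ligands. Dll1 (Delta-like 1) read 8.47, 9.22 and 9.27 at P21, 7.68, 7.85 and 7.85 in fetal, 8.29, 7.88 and 7.95 in adult and 7.87, 7.82 and 7.86 in aged cells. The lowest adolescent array stood just above adult replicate 1, and the differences were 1.19 ± 0.18 (adjusted p = 0.000423) and 0.95 ± 0.18 (adjusted p = 0.0038). Neurl1b, a ubiquitin ligase that promotes uptake of Notch ligands, read 9.41, 9.31 and 9.38 at P21, 8.02, 8.15 and 8.21 in fetal, 7.73, 6.92 and 6.79 in adult and 6.98, 6.92 and 7.15 in aged cells. It exceeded fetal cells by 1.24 ± 0.19 and adult cells by 2.22 ± 0.19. Dll4, a ligand best known from endothelium, was 1.19 ± 0.13 and 0.79 ± 0.13 above the flanks but read 7.38 to 7.92 in aged cells against 7.27 to 7.46 at P21. Other genes of the list varied. Nrarp, a feedback inhibitor, passed only against adult cells (1.16), Hey1, a repressor, passed only against fetal cells (0.94), and Lfng, a modifier of the receptor, was 2.69 below fetal cells.

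Cyclin D1 (Ccnd1), which carries cells through G1, was a peak: 11.21, 10.97 and 10.99 at P21, 9.56, 9.45 and 9.38 in fetal, 10.58, 9.91 and 9.96 in adult and 9.66, 9.25 and 9.32 in aged cells. It exceeded fetal cells by 1.59 ± 0.17 and adult cells by 0.91 ± 0.17. Ccnd2, its close relative, did the reverse relative to fetal cells (-1.79) and was 0.74 above adult cells. Genes of cell division themselves had no peak. Of 35 genes of G2 and M phase, 35 were higher than in adult cells and 9 lower than in fetal cells, and the list mean was 9.31 to 9.67 in fetal, 8.76 to 8.88 at P21 and 7.20, 5.60 and 5.61 in adult cells. Of 33 S phase genes 0 were peaks, 32 were higher than in adult and 12 lower than in fetal cells. Of all genes, 15.2% were higher than in adult and 8.68% lower than in fetal cells. Top2a, an enzyme that untangles chromosomes, showed the course: 10.64 in fetal, 10.06 at P21 and 6.43 in adult cells on average. Its midpoint difference of 1.53 passed (adjusted p = 0.0475) although it did not differ from fetal cells by the test (adjusted p = 0.582).

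**Figure D3:**
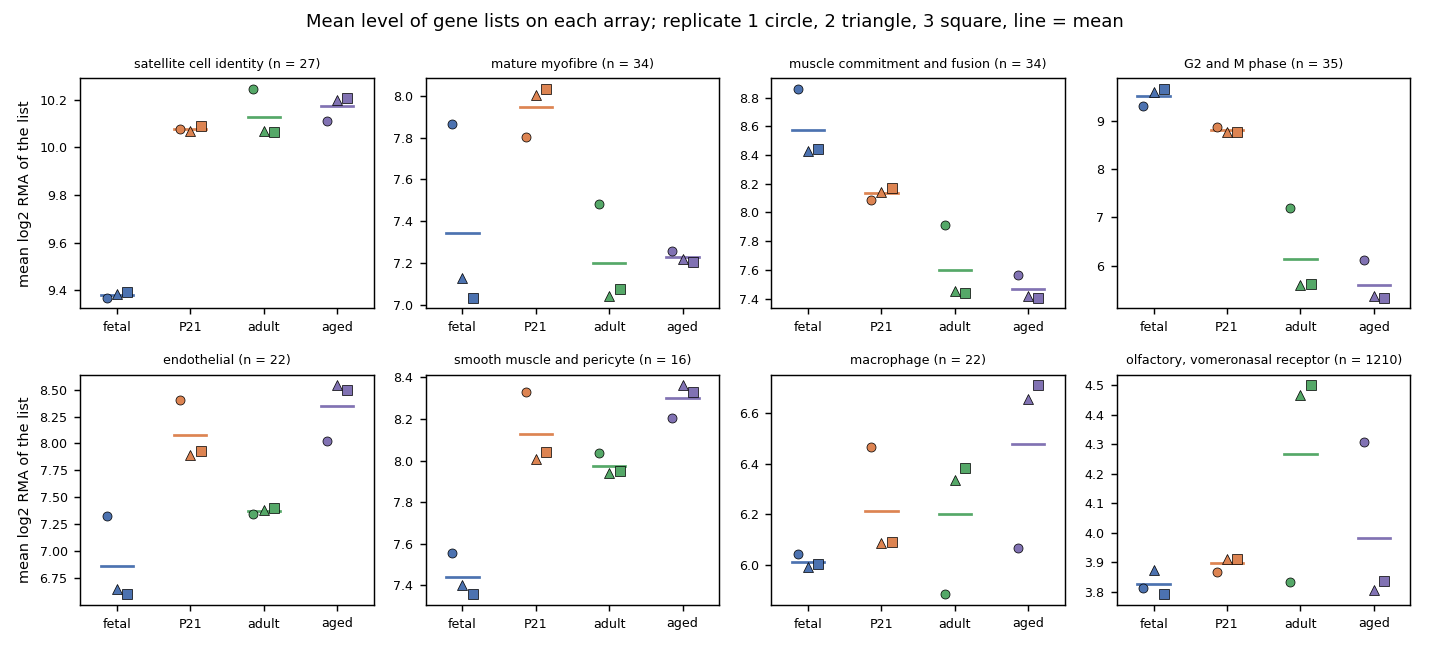
Mean log2 RMA level of 8 gene lists on each of the 12 arrays, with symbols for the replicate number and lines for stage means; n is the number of genes or probe sets in a list. Endothelial genes are higher on the adolescent arrays (7.89 to 8.40) than on the fetal and adult arrays and as high in aged cells, division genes step down from stage to stage, and the receptor panel shows the raised adult replicates 2 and 3 and aged replicate 1.

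Endothelial markers gave the highest share of peaks of the 47 lists. Of 22 measured, 10 were peaks (45.5%, against 1.65% of all genes): Cd93, Esam, Ptprb, Mmrn2, Kdr, Pecam1, Cdh5, Cldn5, Tie1 and Sox17. The list's median midpoint difference was 0.97, made of 1.18 over fetal and 0.60 over adult cells, while against aged cells the median was -0.28 and 0 of 22 passed in either direction (of all genes, 11.5% passed upward and 8.08% downward against aged cells). The list mean was 7.89 to 8.40 on the adolescent arrays, 6.60 to 7.33 on the fetal, 7.35 to 7.40 on the adult and 8.02 to 8.54 on the aged. The genes were therefore high at P21 relative to its neighbours but not relative to the aged stage. Counts moved with the arrays used: 13 of 22 without fetal replicate 1, 11 without adult replicate 1, 8 with the replicate number as a block, 2 with adult replicates 2 and 3 left out and 0 with replicates 2 and 3 averaged, whereas the median stayed between 0.92 and 1.06 in these fits.

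Cd93, a lectin-like receptor of vessel walls, read 9.74, 9.32 and 9.32 at P21, 8.82, 7.31 and 7.51 in fetal, 8.00, 7.97 and 8.10 in adult and 8.72, 9.35 and 9.34 in aged cells. Fetal replicate 1 and adolescent replicate 1 were the highest of their stages, as they were for the list mean. Kdr, the main VEGF receptor, read 8.38, 8.06 and 8.13 at P21, 7.41, 6.47 and 6.45 in fetal and 7.02, 7.32 and 7.37 in adult cells, with differences of 1.41 ± 0.25 and 0.95 ± 0.25. Esam and Tie1, an adhesion molecule and a receptor kinase of endothelium, lost their call in 1 setting each, the averaging of replicates 2 and 3. The adhesion molecule Pecam1 (1.49 ± 0.33 and 1.02 ± 0.33), VE-cadherin (Cdh5) and the phosphatase Ptprb lost theirs in 12, 10 and 11 of 20 settings. For Pecam1 and Ptprb these included the replicate block.

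Of 16 smooth muscle and pericyte genes, 3 were peaks (18.8%): Rgs5, a regulator of G-protein signalling in pericytes, Pdgfrb, the receptor that recruits them, and Acta2, smooth muscle actin. The list's median difference was 0.73 from fetal and 0.02 from adult cells, and Cspg4, another pericyte marker, was 1.55 ± 0.12 lower than in fetal cells. The Pdgfrb call was lost under 14 of 20 settings, the replicate block included. Rgs5 read 9.55, 8.91 and 8.91 at P21, 5.76 to 6.59 in fetal, 8.21 to 8.61 in adult and 9.06 to 9.46 in aged cells. Acta2 was 11.73 to 11.76 at P21, 10.98 to 11.22 in adult and 10.71 to 10.96 in aged cells, highest at P21 of the 4 stages. Car4, a membrane-bound carbonic anhydrase, was 2.77 ± 0.19 above fetal and 1.16 ± 0.19 above adult cells, and -0.09 ± 0.19 from aged cells. Timp4, an inhibitor of metalloproteases, was 3.37 ± 0.21 and 0.95 ± 0.21 above the flanks. The part of vessel cells in these differences was not tested.

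Lipid uptake gave 3 peaks of 25 measured genes (12%). Cd36, a fatty acid translocase, read 10.00, 9.37 and 9.37 at P21, 7.85, 6.77 and 7.08 in fetal, 8.75, 8.41 and 8.34 in adult and 9.75, 10.29 and 10.17 in aged cells. Fabp4, a fatty acid carrier of fat cells and capillaries, was 1.18 ± 0.17 and 0.81 ± 0.17 above the flanks and lower than in aged cells (-0.53 ± 0.17, adjusted p = 0.0462). Cpt1a, which admits fatty acids to mitochondria, rose by 1.83 ± 0.12 over fetal and 0.39 ± 0.12 over adult cells, a call lost with the replicate block. Cd36 and Fabp4 were, like the endothelial list, also high in aged cells, and the part of vessel markers in their differences was not tested. The fat cell hormone Adipoq was at 4.34 at P21 and 6.68 in fetal cells. Lpl, lipoprotein lipase, was 1.95 above fetal cells and did not pass against adult cells (0.32, adjusted p = 0.057).

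Macrophage (22 genes), neutrophil (12), lymphocyte (14), mast cell (12) and erythroid (6) lists each had 0 peaks and 0 troughs, which in lists of this size is near the background of 1.65% and 0.231%. The macrophage mean was 6.47 on adolescent replicate 1 and 6.09 on both others, within the range of the adult arrays (5.88 to 6.38) but for replicate 1. Of 11 Schwann and glial genes, Mbp (myelin basic protein) and Mal (a myelin membrane protein) were peaks (18.2%). Of the 11, 3 were higher and 1 lower than in fetal cells (of all genes, 10.1% and 8.68%), the latter being Erbb3 (-1.28). Mbp read 7.22, 6.99 and 7.07 at P21, 5.83 to 5.92 in fetal and 6.57 to 6.69 in adult cells. Among 18 fibroblast genes Thy1, a surface glycoprotein, was the sole peak, at 8.84, 9.18 and 9.19 against 6.47 to 7.13 and 8.22 to 8.57.

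Matrix turnover genes were also represented. Of 29 proteases and inhibitors, 3 were peaks (10.3%): Plau, Timp3 and Timp4. The Timp3 call was lost under 10 of 20 settings and that of Plau under 3, and the list had 0 peaks with adult replicates 2 and 3 left out or with replicates 2 and 3 averaged. Plau (urokinase), which activates plasmin, read 10.16, 9.83 and 9.85 at P21, 7.57 to 7.73 in fetal, 9.42 to 9.51 in adult and 9.10 to 9.27 in aged cells, with differences of 2.30 ± 0.11 and 0.48 ± 0.11. Of 45 genes for laminins and other matrix, Lamc1 (11.40 to 11.44 at P21, at most 11.04 in fetal and 11.07 in adult cells) and Lamc3, both laminin gamma chains, were peaks (4.44%). Lamc1 was the more even of the pair, at 0.40 ± 0.10 and 0.45 ± 0.10 above the flanks, and Lamc3 was 1.40 ± 0.12 and 0.40 ± 0.12 above them. Their calls were lost under 5 and 9 of 20 settings. Vcan and Fbn2, matrix genes of the embryo, fell by P21 and lay above adult cells (1.47 and 0.63).

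Some lists had 0 peaks, which for lists of 19 to 38 genes is near the background share of 1.65%. The satellite cell identity list (27 genes) had 18 genes higher and 2 lower than in fetal cells (of all genes, 10.1% and 8.68%). Calcr, the calcitonin receptor that marks quiescent cells, averaged 9.03 in fetal, 10.88 at P21 and 10.96 in adult cells, so its rise was nearly complete. Of 19 clock genes 8 passed above the midpoint (6.54% of all genes did). Relative to adult cells 0 were higher and 5 lower (of all genes, 15.2% and 4.56%). Nr1d1, a repressor of the clock, stood at 10.27 at P21 against 6.39 in fetal and 10.93 in adult cells. Oxidative phosphorylation (38 genes) had 20 genes higher than in adult cells and 1 higher than in fetal cells (of all genes, 15.2% and 10.1%). Of the nuclear hormone receptors (29 genes) Vdr, the vitamin D receptor, was the sole peak, at a dim 5.41, 5.82 and 5.73 against 4.78 to 4.95 in fetal and 4.99 to 5.33 in adult cells. The call for Vdr was lost when values under 6 were raised to 6.

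The remaining lists with peaks had 1 each, or 2 of few members. Of 10 adipocyte genes, 2 were peaks (20%): Fabp4 and Plin4, a coat protein of lipid droplets (0.87 and 0.60 above the flanks). Of the 10, 2 were higher and 4 lower than in fetal cells, and 3 higher and 0 lower than in adult cells. Of all genes, 10.1% were higher and 8.68% lower than in fetal cells, and 15.2% higher and 4.56% lower than in adult cells. The median midpoint difference of the adipocyte list was -0.13. Sult1a1, a sulfotransferase, was the peak among 24 glucocorticoid targets, 1.21 above fetal and 0.61 above adult cells. Trim25, a ubiquitin ligase of the interferon response (1 of 37), Srxn1, which restores oxidised peroxiredoxins (1 of 31), Ddx21, an RNA helicase of the nucleolus (1 of 35), and the homeobox gene Hoxd8 (1 of 35) had smaller differences of 0.36, 0.36, 0.32 and 0.53. Their calls were lost under 13, 8, 9 and 11 of 20 settings, and for Trim25, Srxn1 and Ddx21 these included the replicate block.

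**Figure D4:**
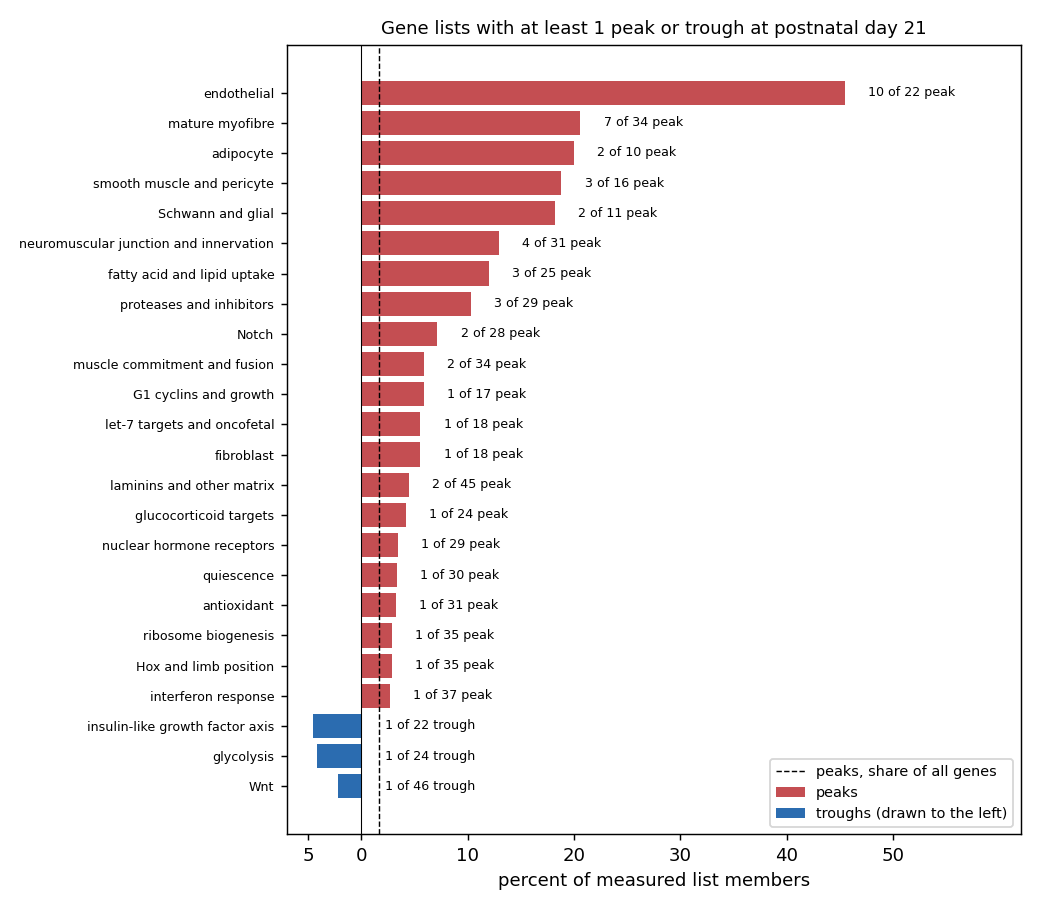
Percent of each gene list's measured members that were peaks (red, to the right) or troughs (blue, to the left), for lists with at least 1, with counts beside the bars and a dashed line at the share of peaks among all genes (1.65%). Endothelial genes (10 of 22) and mature myofibre genes (7 of 34) stand at the top, and lists of 10 or 11 genes reach high shares with 2 peaks.

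The troughs were fewer and mostly shallow. Ranked by the smaller flank difference among those with both flank means of at least 6, the first 15 were Dbx1, Tmem45a, Piezo2, Kif21b, Sntb1, Cacng7, Ndrg1, Vegfd, Mpped2, St3gal1, Csf2ra, Sinhcaf, Itgb5, Ints6l and Adhfe1. Dbx1 and Tmem45a were the 2 troughs of at least 2-fold, and they alone kept their call under all 20 alternative settings.

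Dbx1, a homeobox factor known from progenitors of spinal and brainstem interneurons, read 6.60, 6.95 and 7.15 at P21, 9.14, 9.05 and 9.07 in fetal, 9.22, 9.50 and 9.50 in adult and 9.85, 9.95 and 10.07 in aged cells. Every array of the other stages was above 9. The difference was -2.19 ± 0.14 from fetal (4.55-fold lower, adjusted p = 1.94e-07) and -2.51 ± 0.14 from adult cells (5.68-fold lower, adjusted p = 1.4e-06). Tmem45a, a transmembrane protein, read 6.50, 6.02 and 6.09 at P21, 8.23, 7.92 and 7.95 in fetal, 8.11, 7.55 and 7.65 in adult and 8.33, 8.51 and 8.44 in aged cells. Its adolescent arrays lay under all others, with differences of -1.83 ± 0.16 (adjusted p = 4.88e-06) and -1.57 ± 0.16 (adjusted p = 0.000134).

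Piezo2, a mechanically gated ion channel, read 6.66, 6.52 and 6.67 at P21, 7.59, 7.50 and 7.64 in fetal, 7.0, 7.70 and 7.73 in adult and 7.25, 7.90 and 7.93 in aged cells. Adult replicate 1 lay between the other adult arrays and P21, and the call was lost without adult replicate 2 or 3. The differences were -0.96 ± 0.20 and -0.86 ± 0.20. Kif21b, a kinesin motor, read 5.88, 6.04 and 6.02 at P21 against 6.80 to 7.07 in fetal and 6.49 to 7.0 in adult cells. Sntb1 (beta-1 syntrophin), part of the dystrophin complex, read 8.03, 7.67 and 7.83 against 8.52 to 9.22 and 8.31 to 8.75. Itgb5, an integrin chain, was 8.19 to 8.24 at P21, 8.62 to 8.78 in fetal and 8.94 to 9.02 in adult cells, with differences of -0.47 ± 0.09 and -0.76 ± 0.09. It lost its call only where replicates 2 and 3 were averaged.

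Ndrg1, a gene induced by hypoxia and stress, read 9.53, 9.63 and 9.65 at P21, 9.88 to 10.27 in fetal, 10.21 to 10.47 in adult and 10.67 to 10.73 in aged cells. Csf2ra, the GM-CSF receptor alpha chain, was -0.58 ± 0.10 and -0.49 ± 0.10 from the flanks. Vegfd, a growth factor for lymphatic vessels, read 5.86, 5.73 and 5.62 at P21, 6.61 to 7.25 in fetal and 6.21 to 6.28 in adult cells. Its call was lost under 10 of 20 settings and that of Sinhcaf, a subunit of the Sin3 deacetylase complex, under 13, the replicate block among them for both. The lists held 3 further troughs outside the ranking. Igfbp5, a binding protein for insulin-like growth factors, read 10.48, 10.38 and 10.42 at P21, 10.78 to 10.87 in fetal, 10.75 to 10.99 in adult and 11.12 to 11.38 in aged cells (-0.41 ± 0.10 from each flank). Tcf7l2, which carries Wnt signals to DNA, and Slc16a1, a lactate transporter, were -0.31 ± 0.10 from adult cells each, and lost their call under 13 and 12 settings, with the replicate block in both cases. Igf2 and Igf1, the ligands, were not troughs: Igf2 fell from stage to stage (12.04, 10.92 and 10.00 in fetal, P21 and adult cells) and Igf1 averaged 9.39, 9.78 and 8.76.

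**Figure D5:**
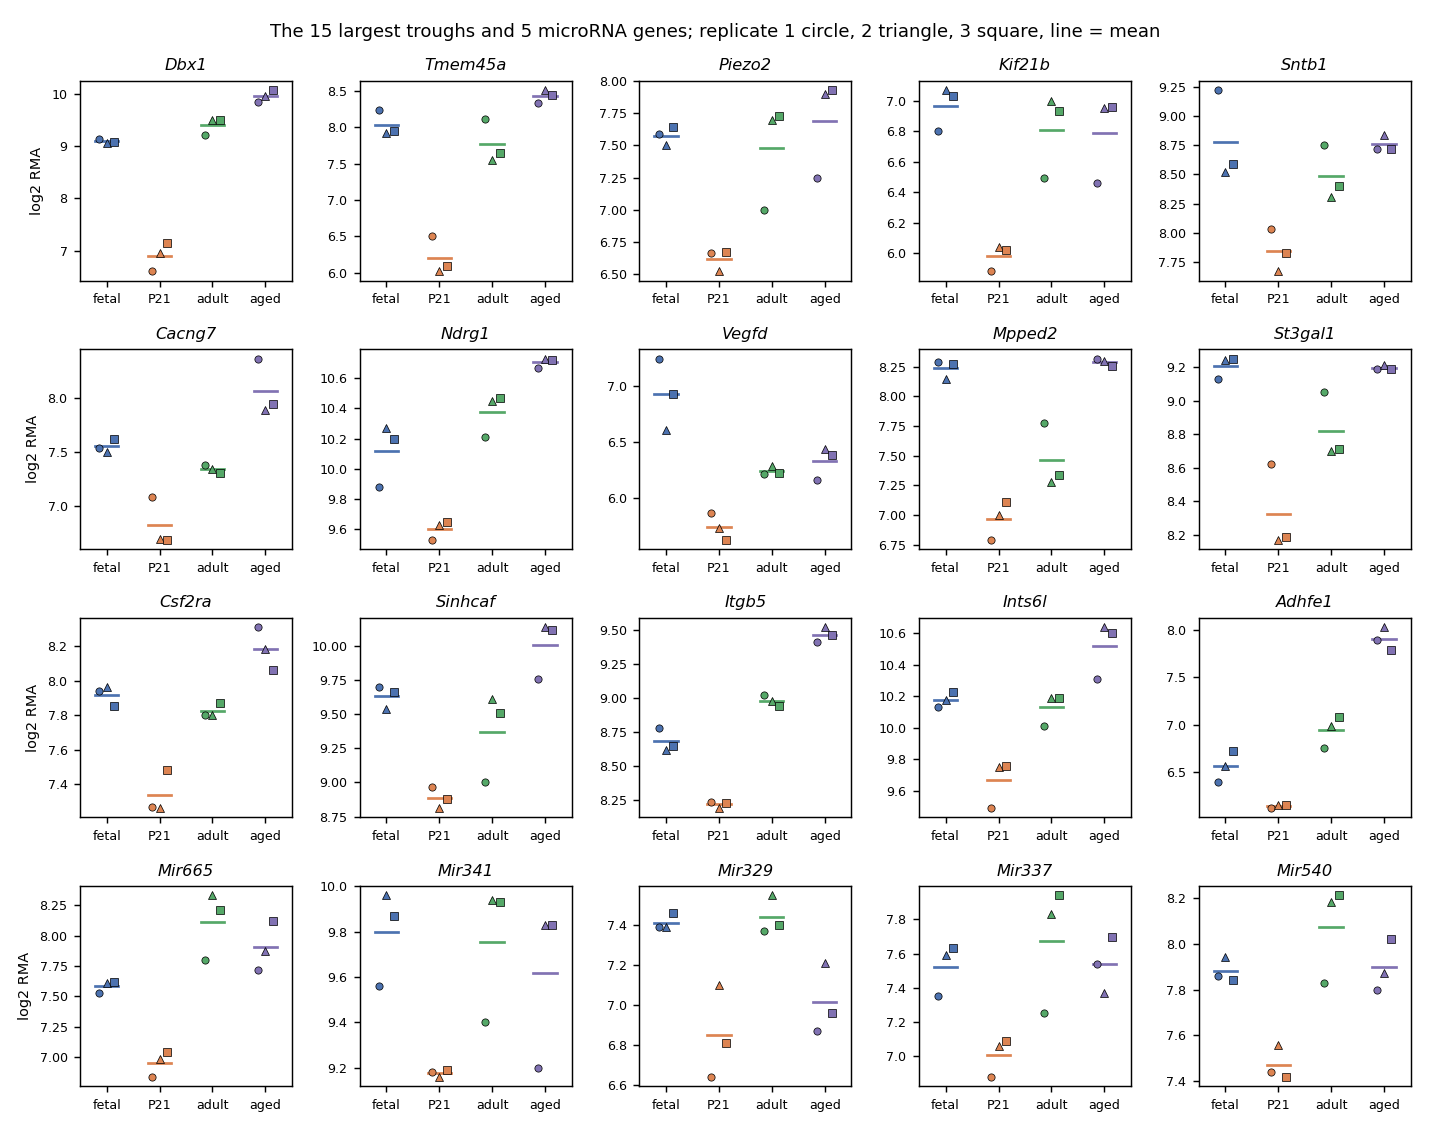
Log2 RMA values on each of the 12 arrays for the 15 largest troughs and, in the bottom row, 5 microRNA genes of the Dlk1 to Dio3 region; symbols mark the replicate number and lines the stage means. The 3 adolescent (P21) values lie below the 6 fetal and adult values in every panel, by more than 1 log2 unit in all arrays only for Dbx1 and Tmem45a.

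Genes for microRNAs made up 7 of the 46 troughs and 0 of the 328 peaks, and they were looked at after their values were seen. Of all 19938 genes 0.231% were troughs and 1.65% peaks. MicroRNAs pair with messenger RNAs through bases 2 to 8, the seed. Of 40 measured microRNA genes that RefSeq places between Dlk1 and Dio3, an imprinted region whose large microRNA cluster is expressed from the maternal chromosome, 5 were troughs: Mir665, Mir329, Mir341, Mir337 and Mir540. Of 260 microRNA genes elsewhere 2 were troughs, Mir505 and Mir218-1, whose calls were lost with the replicate block. The mature forms of the 2 genes of the cluster whose calls held best are shown (RefSeq, GRCm38.p6, chromosome 12, plus strand), with the seed in capitals.
miR-665-5p, chr12:109586331-109586356: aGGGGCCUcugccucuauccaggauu
miR-665-3p, chr12:109586368-109586387: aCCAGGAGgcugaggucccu
miR-329-5p, chr12:109713503-109713524: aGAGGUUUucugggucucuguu
miR-329-3p, chr12:109713541-109713562: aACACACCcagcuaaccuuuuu

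Among the 1738 mouse mature sequences in the table, the seed of miR-329-3p is shared with miR-362-3p alone, and the other seeds shown occur only in the sequence shown. The probe sets are assigned to the hairpin genes, and which form of the RNA they read (primary transcript, hairpin or mature arm) was not tested.

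Mir665 read 6.84, 6.99 and 7.04 at P21, 7.53, 7.61 and 7.62 in fetal, 7.80, 8.33 and 8.21 in adult and 7.72, 7.87 and 8.12 in aged cells. All adolescent values lay below all others, by -0.63 ± 0.14 from fetal (adjusted p = 0.00641) and -1.16 ± 0.14 from adult cells (adjusted p = 0.000269). Mir329 read 6.64, 7.10 and 6.81 at P21, 7.39, 7.39 and 7.46 in fetal, 7.37, 7.55 and 7.40 in adult and 6.87, 7.21 and 6.96 in aged cells. It was low at P21 relative to its neighbours and within reach of the aged arrays (-0.17 ± 0.13). The calls for Mir341, Mir337 and Mir540 were lost under 11, 12 and 8 of 20 settings. The mean of the 40 genes was 5.97 to 6.13 at P21, 6.46 to 6.61 in fetal, 6.17 to 6.37 in adult and 5.85 to 6.25 in aged cells. The median midpoint difference was -0.34 over the 40 genes, -0.14 over the 260 elsewhere and -0.01 over all genes. Split by flank, the medians of the 40 and the 260 were -0.41 and -0.04 from fetal cells. From adult cells they were -0.20 and -0.24, and from aged cells 0.02 and -0.13. The 40 genes thus lay lower than the 260 relative to fetal cells but not relative to adult cells. Adult replicates 2 and 3, which had raised receptor signals, also had higher means of the 40 genes (6.37 and 6.33) than adult replicate 1 (6.17), and the part of that in the adult difference was not tested. Meg3, the long non-coding RNA at the start of the region, was 0.24 lower than each flank and did not pass (adjusted p = 0.139 and 0.106).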

How the data were processed

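The deposited values are log2 intensities per probe set, normalized by the authors with RMA in Expression Console 1.2.1.20, per the submitters' processing notes. The labels give no more of the upstream steps. Of 35556 probe sets, 21789 carried 1 gene symbol, 1621 several and 12146 none, and the first gave 19938 genes (highest mean over the 12 arrays). limma 3.58.1 in R 4.3.3 was fitted to all 12 arrays with 1 mean per stage, and contrasts took adolescent minus the average of the fetal and adult means, and minus each stage. Adjusted p-values are Benjamini-Hochberg over all genes, with a threshold of 0.05. An exact permutation test of 3 against 3 arrays cannot go below p = 0.1, so none was used for single genes. The script was tested on simulated data. Named genes are the 15 largest peaks and troughs by the smaller flank difference (arrays not overlapping, mean of at least 6 at P21 for peaks or at both flanks for troughs, without small RNAs, predicted genes and receptor families), list members that were peaks or troughs, up to 3 members of each of 47 lists with the smallest midpoint p, and a fixed set of genes; not all are printed. MicroRNA genes were added after their values were seen. Of 1310 listed names 1226 were measured. The members and lists were chosen with earlier results of these data known. Same-numbered arrays correlated (deviations from stage means) at 0.029 to 0.197 between fetal and adolescent, -0.223 to 0.273 between fetal and adult, and 0.239 to 0.362 between adolescent and adult stages. The labels state no pairing and not all pairs exceeded 0.1, so the replicate number was used as a block only in an alternative. Promoter and microRNA sequences are those of RefSeq (GRCm38.p6). Alternatives covered normalization, filters, weights, a replicate block and each array left out.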

Additional observations from a re-analysis of the deposited data

Results flagged for a closer look

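Probe sets with no gene symbol were not used in the comparison. When the same contrasts were fitted over all 35556 probe sets, 31 of the 12146 unnamed ones (0.255%) passed above both flanking stages and 44 (0.362%) below both.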

How the results depend on the processing

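In the order midpoint higher, midpoint lower, adolescent against fetal, adolescent against adult, peaks and troughs, the counts were 1304, 490, 3739, 3941, 328 and 46. Leaving out 1 array gave 605 to 3791, 242 to 1709, 2690 to 5049, 1876 to 10757, 157 to 881 and 19 to 160, the highest without adult replicate 1. Array weights gave 6069, 5441, 8034, 15088, 1795 and 604, and the estimation of those weights did not reach its tolerance. With replicates 2 and 3 of each stage averaged, chosen after seeing the data, they were 166, 71, 1472, 323, 15 and 2. Without both adult replicates 2 and 3, also chosen after seeing the data, 823 midpoint-higher genes, 756 differences from adult cells, 71 peaks and 15 troughs remained in number. Requiring a 2-fold difference as well gave 190, 56, 991, 631, 31 and 2. With arrays set to a common median 29 troughs passed, and the share of higher midpoint calls was 80.5% against 72.7%. With the replicate number as a block there were 1174, 439, 3494, 3458, 265 and 37, of which 250 peaks and 32 troughs were among those reported. The block ended the calls of Pecam1, Ptprb, Mymk, Cpt1a, Ddx21, Pdgfrb, Sinhcaf, Slc16a1, Srxn1, Tcf7l2, Trim25, Vegfd, Mir218-1 and Mir505. Repeated quantile normalization, the floor and filter at 6, averaged probe sets, the 9 arrays alone and a robust trend kept all 6 counts within 1.5 times. No called gene named in the Results changed direction under these settings. The peaks named under Other observations were not followed gene by gene through all settings. The near-zero median midpoint difference of all genes did change sign (-0.01, and 0.03 with repeated quantile normalization, 0.04 with a common median). With 3 arrays a stage, and replicates 2 and 3 nearly alike in each, differences near the threshold are the least certain.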

Other observations

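Beyond the lists, other peaks could be grouped after their values were seen, so their grouping is a description. Histone genes of the replication-dependent and related families gave 4 peaks of 44 measured and 0 troughs, against 1.65% and 0.231% of all genes. The peaks were H1f2 (0.81 above fetal, 1.21 above adult cells), H1f3 (0.61 and 0.83), H2bc4 (1.01 and 0.77) and H2aj (0.46 and 0.43). H1f2 passed narrowly against fetal cells (limma adjusted p = 0.0471). H2bc4 was -0.68 from aged cells, while H1f2, H1f3 and H2aj stood above them. H1f2 and H1f3 encode linker histones. Genes of myelin and glia outside the Schwann list included Cnp, an enzyme of myelin (0.81 and 1.30), Tspan2, a tetraspanin of oligodendrocytes (0.79 and 0.81), Pllp (0.92 and 0.52), Gldn (0.73 and 0.51) and Ncmap (0.72 and 0.40). The P21 means of Pllp, Gldn and Ncmap were dim (5.84, 5.68 and 5.93), and Tspan2 was -0.13 from aged cells. How many myelin genes were measured outside the Schwann list was not counted.

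From the peaks, 9 vessel genes outside the endothelial list were picked after their values were seen. The values of these 9 in aged cells were close to or above those at P21. How many vessel genes were measured outside that list was not counted, and other peaks linked to vessels were not examined for this. Adgrl4 was 2.94 above fetal, 1.08 above adult and -0.53 from aged cells, Adgrf5 2.52, 0.95 and -0.53, and the water channel Aqp1 2.79, 0.95 and -0.17. Among peaks that kept their call with replicates 2 and 3 averaged, Aqp7, a glycerol channel, was 2.67 above fetal and 1.00 above adult cells, Prune2 0.95 and 1.57, Tnfrsf21 (death receptor 6) 0.73 and 1.15, Cdk18 1.12 and 0.86, Chst13 1.49 and 0.92 and Sbspon 0.71 and 0.96.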
